A study of Mus musculus with 9 samples.

Results

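Small nucleolar RNAs (snoRNAs) and small Cajal body RNAs (scaRNAs) were taken from the gene counts of 9 mouse medulloblastomas as every row whose gene name begins with Snora, Snord or Scarna followed by a number. The rule gave 131 of 47593 rows: 39 H/ACA rows (Snora), 83 C/D rows (Snord) and 9 Cajal body rows (Scarna). Of the tumours, 6 were labelled Cdk6-/- and 3 were labelled Cdk6+/+. All 9 came from C57BL/6J mice that carried the Cre transgene B6.Cg-Tg(Atoh1-cre)1Bfri/J and the allele GT(ROSA)26Sortm1(Smo/EYFP)Amc/J, so both groups expressed SmoM2, a constitutively active Smoothened. The Cre acts where Atoh1 (Math1) is expressed, which in the cerebellum is the granule neuron progenitor, and the labels give neither age nor sex. The series set tumours with Cdk6 deleted against tumours with Cdk6 intact. Cdk6 is a cyclin D dependent kinase of the cell cycle.

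Most snoRNAs are cut out of the introns of other genes, often genes for ribosomal proteins, and work in the nucleolus as guides that base-pair with ribosomal RNA. C/D RNAs carry a C box and a D box and direct 2′-O-methylation by fibrillarin. H/ACA RNAs fold into hairpins separated by an H box and followed by an ACA triplet, and direct the conversion of uridine to pseudouridine by dyskerin. The scaRNAs have either kind of structure or both, gather in Cajal bodies and guide the same modifications on the small nuclear RNAs of the spliceosome.

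The RNAs that carry the results are shown first, from GENCODE release M21 (genome build GRCm38), written 5′ to 3′ as DNA. Scarna9, Scarna2, Snora28 and Snord118 are shown because their levels separated the groups, and Snord33 and Snord34 because they lie in the same host gene. The log2 fold changes of Snord33 and Snord34 had opposite signs, but neither passed the test and their difference was not tested. Scarna9 is at chr9:15326264-15326333 on the minus strand, inside an intron of Cep295. Scarna2 is at chr3:108554338-108554751 on the minus strand and lies in no other gene of the table. Of its 414 bases the last 120, which hold its C box, are shown (chr3:108554338-108554457). Snora28 is at chr12:111540941-111541067 on the plus strand, inside an intron of Eif5. Snord118, the U8 RNA, is at chr11:69073427-69073561 on the plus strand and lies in no other gene. Snord33 at chr7:45126864-45126947 and Snord34 at chr7:45126601-45126670 are both on the minus strand inside Rpl13a. Capitals mark the C box (ATGATGA or GTGATGA) and every D box (CTGA) in the C/D and Cajal body RNAs, and the H box (ANANNA) in the middle of the RNA with the ACA triplet near the 3′ end in Snora28.
Scarna9: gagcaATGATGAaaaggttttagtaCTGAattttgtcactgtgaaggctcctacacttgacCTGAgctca
Scarna2 (last 120 bases): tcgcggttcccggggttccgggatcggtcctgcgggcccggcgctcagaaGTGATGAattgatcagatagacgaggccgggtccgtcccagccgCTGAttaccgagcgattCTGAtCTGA
Snora28: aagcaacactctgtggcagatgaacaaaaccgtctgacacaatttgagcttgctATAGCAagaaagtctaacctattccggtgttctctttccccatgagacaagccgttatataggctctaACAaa
Snord118: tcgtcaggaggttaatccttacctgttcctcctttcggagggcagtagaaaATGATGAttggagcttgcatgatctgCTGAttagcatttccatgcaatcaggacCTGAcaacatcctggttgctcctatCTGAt
Snord33: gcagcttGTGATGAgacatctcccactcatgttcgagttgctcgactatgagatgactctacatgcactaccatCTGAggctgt
Snord34: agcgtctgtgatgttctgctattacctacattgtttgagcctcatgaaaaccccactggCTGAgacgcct

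Over all 131 rows the names went with some of the box motifs, but not in every row. A C box at any position was found in 56 of 83 C/D rows, and Snord34 is among those without it. A C box in the first 20 bases with a D box in the last 15 was found in 50 of 83 C/D rows (60.2%), in 0 of 39 H/ACA rows and in 4 of 9 Cajal body rows, against 0 of any class in the reverse complements of the same sequences. The ACA triplet in the last 8 bases was found in 37 of 39 H/ACA rows (94.9%), against 4 of their 39 reverse complements (10.3%). The letters of the H box did not follow the names. They were at some position in 39 of 39 H/ACA rows and 36 of 39 of their reverse complements, and in 71 of 83 C/D rows. Among the Cajal body rows, Scarna9, Scarna17, Scarna2, Scarna6 and Scarna10 held a C box, which in Scarna2 is internal, and Scarna13, Scarna3a, Scarna3b and Scarna8 held the ACA triplet at the 3′ end. The letters TGAG, the Cajal body box of H/ACA scaRNAs, were in 8 of 9 Cajal body rows and in 3 of 9 of their reverse complements. They were also in 67 of 83 C/D rows, where they can overlap a D box. These motifs are matches of letters in the sequence and not mapped binding sites.

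The libraries differed in ways that touch the results. Total counts were 21.4 to 34.5 (in units of 1e6) in Cdk6-/- libraries and 39.4 to 56.8 in Cdk6+/+ libraries. Counts covering the whole Cdk6 gene were 214, 562, 270, 464, 2.17 and 351 CPM (counts per 1e6 counts, with totals scaled by TMM) in Cdk6-/- tumours 1 to 6 and 562, 551 and 562 CPM in Cdk6+/+ tumours 1 to 3. The labels do not name the deleted part, so these values do not check the genotype. Tumour 5 of the Cdk6-/- group had 0.398 CPM of the proliferation gene Mki67 and 0.0442 CPM of Atoh1, which defines the progenitors, and tumours 1 and 5 had 931 and 1050 CPM of Gabra6, a GABA receptor gene of mature granule neurons. The Y-linked gene Ddx3y was at 57.6 to 145 CPM in Cdk6-/- tumours 2 to 5 and had no count in Cdk6-/- tumour 6 or in any Cdk6+/+ tumour. The summed level of 5 red cell markers was 0.535 to 8.0 CPM in Cdk6-/- tumours and 65.9 to 111 CPM in Cdk6+/+ tumours, and that of 5 microglial markers was 58.5 to 131 CPM in Cdk6-/- tumours and 201 to 228 CPM in Cdk6+/+ tumours. Sums of 5 astrocyte markers were 756 to 1530 CPM in Cdk6-/- tumours other than tumour 5, 3820 CPM in tumour 5, and 2190 to 2270 CPM in Cdk6+/+ tumours. Sums of 5 Purkinje cell markers were 67.6 to 365 CPM in Cdk6-/- tumours other than tumour 5, 8220 CPM in tumour 5, and 668 to 1320 CPM in Cdk6+/+ tumours, and those of 5 oligodendrocyte markers were 218 to 894, 2610 and 1110 to 2680 CPM in the same order. No gene of these lists was at 0 in all libraries. The part of depth, sex and cell content in the results below was not tested except where a value is given. The labels do not say that the tumours came from separate animals, and the p-values measure the spread between these samples.

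Of the 131 RNAs, 79 had at least 1 count and 52 had none in any of the 9 libraries. The counted rows were 22 of 39 H/ACA, 48 of 83 C/D and all 9 Cajal body RNAs, 72 rows reached 10 counts summed over the libraries, and 44 rows were counted in every library. All together they held 13633 counts, which is 0.00473% of all counts. How well the library kit captured RNAs this short was not tested, so the levels below are counts and not amounts of RNA. A single library held counts of 61 to 72 members among Cdk6-/- tumours and 64 to 69 among Cdk6+/+ tumours. At the total of the smallest library the expected numbers were 59.2 to 70.6 in Cdk6-/- and 60.5 to 66.1 in Cdk6+/+ tumours, ranges that overlap.

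Whether a row was counted at all followed its position relative to the exons of other genes. Of 71 rows clear of any other exon, 68 were counted, and of 13 rows partly under an exon on the same strand, 11 were counted. None of the 44 rows that lie wholly under an exon of another gene on the same strand, 14 H/ACA and 30 C/D, had a single count. The 3 rows that lie only opposite an exon, Snord42a, Snord4a and Snora73b, also had none. The 3 uncovered rows at 0 were Snord116l1 and Snord116l2, inside the imprinted transcript Snhg14, and Snora35, inside the serotonin receptor gene Htr2c. All 50-base windows of both Snord116 rows recur in other genes, so that reads of 50 bases from them cannot be told apart. Other snoRNA, scaRNA and small nuclear RNA rows showed 0 of 75 counted when wholly covered and 950 of 2603 when clear. Among them, 2 of 27 were counted when only opposite an exon and 18 of 28 when partly covered. A 0 in a covered row is therefore no measure of the RNA. Counts of an uncovered row can come from the mature RNA or from a longer transcript that spans it, and these cannot be told apart.

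**Figure D1:**
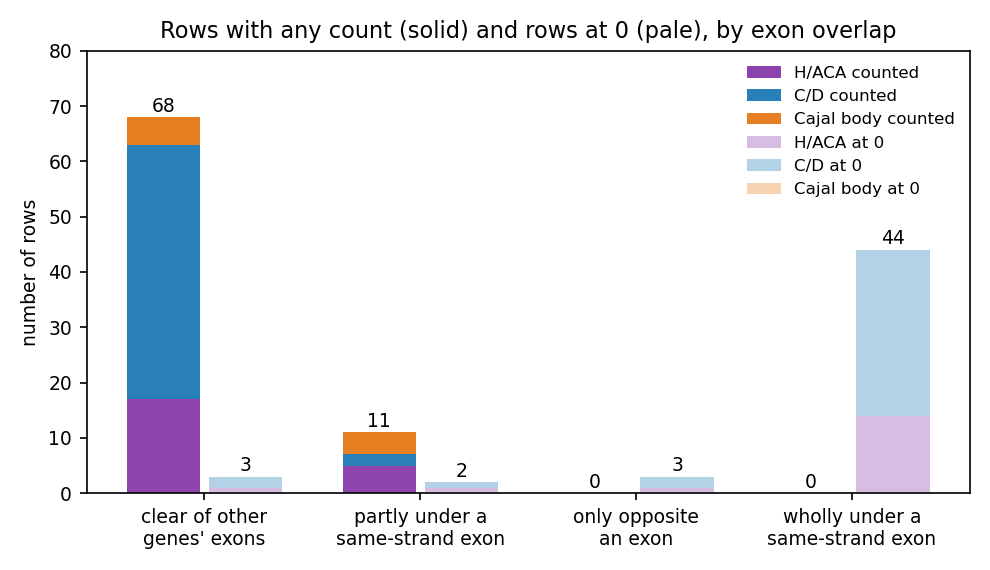
Number of rows with any count (solid) and at 0 in all 9 tumours (pale) on the vertical axis, by how the row lies relative to exons of other genes, coloured by class. Of rows clear of exons 68 were counted and 3 were at 0, while all 44 rows wholly under a same-strand exon were at 0.

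The summed level of the 9 Cajal body RNAs was higher in every Cdk6-/- tumour than in any Cdk6+/+ tumour, and the sums of the H/ACA and C/D classes overlapped between the groups. The Cajal body sums were 6.10, 8.95, 16.4, 11, 5.35 and 11 CPM in Cdk6-/- tumours 1 to 6 and 0.99, 1.54 and 1.84 CPM in Cdk6+/+ tumours 1 to 3. Their means were 9.81 ± 4.03 CPM (SD, n = 6) in Cdk6-/- and 1.46 ± 0.431 CPM (SD, n = 3) in Cdk6+/+ tumours, a log2 ratio of 2.75. Scarna9, Scarna2 and Scarna17 made this difference: the other 6 summed to 0.755 ± 0.240 CPM (SD, n = 6) in Cdk6-/- and 0.809 ± 0.199 CPM (SD, n = 3) in Cdk6+/+ tumours, a log2 ratio of -0.10. The H/ACA sum was 11.6 ± 6.88 CPM in Cdk6-/- tumours and 16.8 ± 0.598 CPM in Cdk6+/+ tumours, with single Cdk6-/- tumours between 3.8 and 20.3 CPM. For the C/D class the sum was 22.7 ± 10.9 CPM in Cdk6-/- tumours and 28.0 ± 1.73 CPM in Cdk6+/+ tumours, with single Cdk6-/- tumours between 8.71 and 37.1 CPM. In both classes Cdk6-/- tumours 3 and 4 were highest of all 9 and tumour 5 was lowest. In bulk tissue, fewer cells that make an RNA and less of it per cell cannot be told apart.

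**Figure D2:**
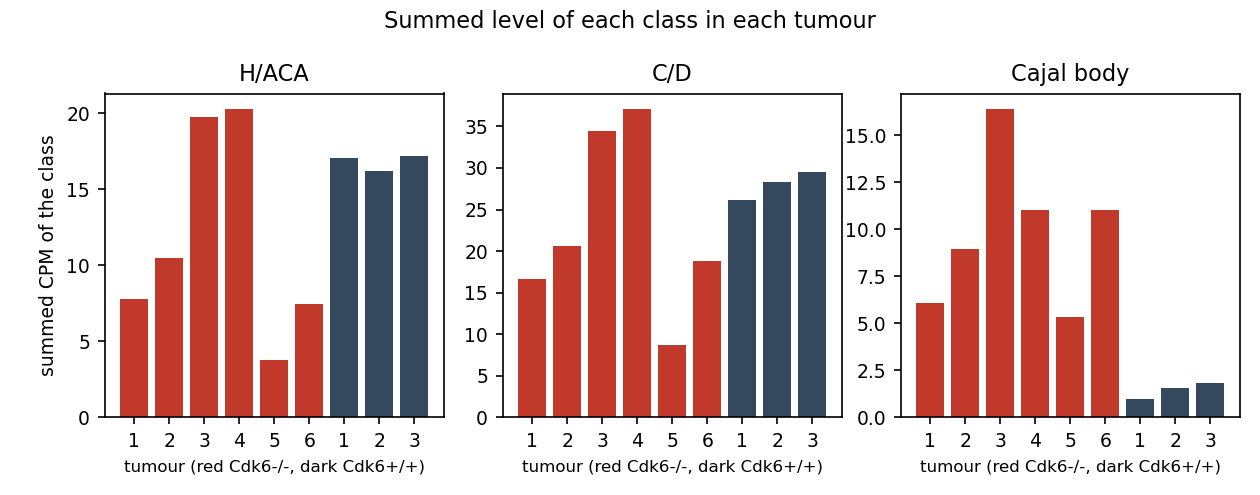
Summed CPM (vertical axis, from 0) of each class in each tumour, with Cdk6-/- tumours 1 to 6 in red and Cdk6+/+ tumours 1 to 3 in dark grey. The Cajal body sums lie between 5.35 and 16.4 CPM in Cdk6-/- and between 0.99 and 1.84 CPM in Cdk6+/+ tumours, and the other classes overlap.

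After the filter on low counts, 39 of the 131 RNAs were tested: 12 H/ACA, 23 C/D and 4 Cajal body RNAs. In edgeR's quasi-likelihood test with Benjamini-Hochberg adjustment over all 18356 genes tested, 5 passed the threshold of 0.05, 3 higher and 2 lower in Cdk6-/- tumours. That is 12.8% of the tested members, beside 5.19% of all genes tested (2.76% higher and 2.43% lower). The 3 higher were Scarna9, Scarna17 and Scarna2, which are 3 of the 4 Cajal body RNAs tested. The 2 lower were 1 of 12 H/ACA RNAs, Snora28, and 1 of 23 C/D RNAs, Snord118. Rows pass this filter through the group in which they are high, so the counts do not describe all 131 RNAs. The median log2 fold change was -0.53 for the tested H/ACA RNAs, -0.65 for the C/D RNAs and 3.4 for the Cajal body RNAs, beside 0.16 for all genes tested. An unadjusted p under 0.05 was seen in 11 of the 39. The 5 calls became 3 when any Cdk6+/+ tumour was left out and 8 without Cdk6-/- tumour 5. In 14 of the 39 (35.9%) the groups did not overlap, 4 with Cdk6-/- above and 10 with Cdk6-/- below, beside 15.5% of all genes tested (7.56% above and 7.98% below). The same 5 RNAs are the only members in the authors' deposited table of 761 genes, where their log2 fold changes are 4.95 for Scarna9, 3.45 for Scarna17, 2.84 for Scarna2, -2.85 for Snora28 and -4.97 for Snord118. That table comes from the same libraries.

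Scarna9, whose human counterpart guides methylation of the U2 small nuclear RNA, showed the largest rise among the members tested. GENCODE M21 gives this row of 70 bases, and that of Scarna10, the type snoRNA and not scaRNA. Both are in the Cajal body class here by gene name alone. Scarna9 had 80, 141, 244, 98, 47 and 84 counts in Cdk6-/- tumours 1 to 6 and 2, 7 and 7 counts in Cdk6+/+ tumours 1 to 3. As CPM the Cdk6-/- tumours ranged from a lowest value of 2.08 through a median of 4.16 to a highest of 6.03, and the Cdk6+/+ tumours had 0.036, 0.171 and 0.181. The lowest Cdk6-/- tumour, tumour 5, was above every Cdk6+/+ tumour. All Cdk6+/+ libraries were deeper than all Cdk6-/- libraries, and the part of depth was not tested. The log2 fold change was 5.03 (SE 0.65, adjusted p = 0.00257), and the call held under all 17 settings in which the gene was tested. No 50-base window of Scarna9 recurs in another transcript.

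The gene that contains Scarna9 did not pass the test. Cep295, which encodes a centriole protein, was at 83.2 CPM in Cdk6-/- tumours and 77.1 CPM in Cdk6+/+ tumours (log2 fold change 0.11, SE 0.26, adjusted p = 0.865). As a percent of the Cep295 level, Scarna9 was 3.56, 5.88, 10, 5.96, 3.3 and 3.78 in Cdk6-/- tumours and 0.0469, 0.224 and 0.232 in Cdk6+/+ tumours. The log2 ratio of the RNA to its host differed by 5.22, or by 2.80 with 0.5 CPM added to both, which is above every Cdk6+/+ level of Scarna9 (exact two-sided permutation test over 84 splits, p = 0.0119 both ways, the smallest p these splits allow). This ratio was examined because Scarna9 had passed the first test, so its p is no independent evidence.

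Scarna2, a long C/D scaRNA transcribed from its own promoter in human cells and a guide for U2 there, also rose. It had 18, 66, 305, 124, 42 and 114 counts in Cdk6-/- tumours and 15, 20 and 22 in Cdk6+/+ tumours. Its level was 3.84 ± 2.49 CPM (SD, n = 6) in Cdk6-/- and 0.443 ± 0.155 CPM (SD, n = 3) in Cdk6+/+ tumours, with tumour 1 lowest at 0.963 CPM and still above the highest Cdk6+/+ value of 0.570 CPM. The log2 fold change was 3.11 (SE 0.72, adjusted p = 0.0352). This call held under 9 of 17 settings. It was lost when any Cdk6+/+ tumour was left out (adjusted p = 0.121 to 0.178) and when Cdk6-/- tumour 2, 3, 4 or 6 was left out (0.0531 to 0.073).

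Scarna17, whose human counterpart guides modification of the U12 and U4 small nuclear RNAs, rose as well. Counts were 5, 20, 84, 24, 20 and 22 in Cdk6-/- tumours and 4, 3 and 3 in Cdk6+/+ tumours, or 0.990 ± 0.596 CPM (SD, n = 6) in Cdk6-/- and 0.0743 ± 0.00304 CPM (SD, n = 3) in Cdk6+/+ tumours. All Cdk6-/- tumours were above all Cdk6+/+ tumours, tumour 1 least so at 0.267 CPM. The log2 fold change was 3.68 (SE 0.70, adjusted p = 0.0157). Without Cdk6+/+ tumour 1, 2 or 3 the adjusted p was 0.0969, 0.0755 and 0.0913. Of its 50-base windows 70% recur in the gene Gm25443, which had no count in any library.

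The Y-linked Ddx3y and the X-linked Xist were uneven among the Cdk6-/- tumours. Tumour 6 had no Ddx3y count and 1760 CPM of Xist, beside 1580 to 2090 CPM in Cdk6+/+ tumours, and in it Scarna9 was at 3.77 CPM, Scarna2 at 5.11 CPM and Scarna17 at 0.987 CPM. Tumour 1 had 3 Ddx3y counts and 131 CPM of Xist, and in it Scarna9 was at 4.28 CPM, while Scarna2 at 0.963 CPM and Scarna17 at 0.267 CPM were the lowest of the group. With the level of Ddx3y as a covariate, 1 of the 5 members passed, Scarna9. Far fewer of all genes passed with this covariate as well, as given in the last section. Ddx3y had no count in any Cdk6+/+ tumour, so the covariate partly follows the label, and the part of sex cannot be told apart. Without Cdk6-/- tumours 1 and 5 all 5 passed, among 6 members higher and 5 lower of 47 tested, beside 8.12% and 6.14% of all genes tested. The added calls were Snord88c, Snora68 and Snord34 higher and Snord93, Snord49b and Snord91a lower.

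Of the other 6 Cajal body RNAs, 1 had enough counts for the test and did not pass it. This RNA, Scarna13, was at 0.160 to 0.673 CPM (median 0.302) in Cdk6-/- and at 0.216, 0.390 and 0.493 CPM in Cdk6+/+ tumours (log2 fold change -0.02, SE 0.60, adjusted p = 0.993), with a sign that changed with the libraries included. Scarna6 was at 0.133 to 0.321 CPM in Cdk6-/- and at 0.144, 0.171 and 0.363 CPM in Cdk6+/+ tumours, too few counts for the test. Scarna8 and Scarna10 had at most 6 and 3 counts in any library. Scarna3a had no count in Cdk6-/- tumours and 8, 2 and 5 counts in Cdk6+/+ tumours, at least 5.61-fold higher in Cdk6+/+ when 3 counts over the Cdk6-/- group are taken as the floor. Scarna3b had 11 counts over 5 Cdk6-/- tumours and none in Cdk6+/+ tumours, at least 3.27-fold higher in Cdk6-/- by the same floor. These 2 rows were not tested, each lies partly under a microRNA gene (Mir1843b and Mir1843a), and 83.3% of the windows of Scarna3b recur in another gene. The 3 scaRNAs that passed the test hold a C box, as do Scarna6 and Scarna10, whose groups overlapped.

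**Figure D3:**
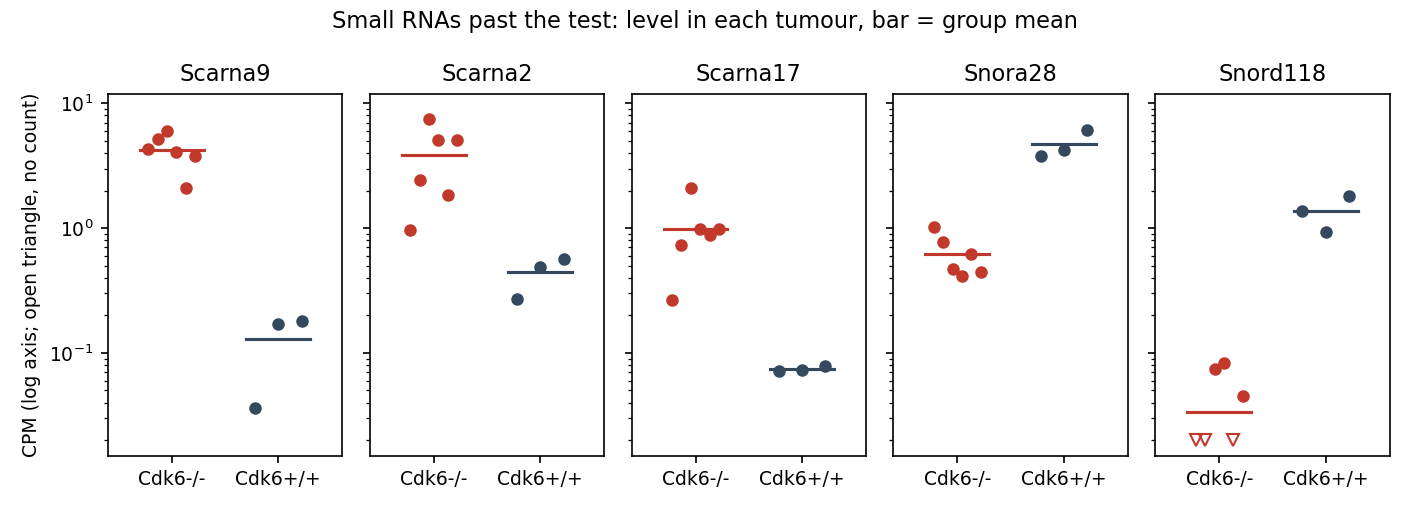
CPM on a log axis for the 5 RNAs that passed the test, one point per tumour, bars at group means and open triangles for tumours without a count. In every panel the 6 Cdk6-/- and 3 Cdk6+/+ tumours do not overlap, with Cdk6-/- above for the scaRNAs and below for Snora28 and Snord118.

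Snora28, an H/ACA RNA that in human cells guides pseudouridylation of the small-subunit ribosomal RNA, fell. It had 19, 21, 19, 10, 14 and 10 counts in Cdk6-/- tumours and 210, 173 and 234 in Cdk6+/+ tumours, so the Cdk6-/- values lay close together and far below. The level was 0.623 ± 0.235 CPM (SD, n = 6) in Cdk6-/- and 4.69 ± 1.21 CPM (SD, n = 3) in Cdk6+/+ tumours (log2 fold change -2.91, SE 0.39, adjusted p = 0.0031). Under 1 of 17 settings, the Ddx3y covariate, it did not pass (adjusted p = 0.0846). Its host Eif5, a translation initiation factor, was at 340 CPM in Cdk6-/- tumours and 514 CPM in Cdk6+/+ tumours, a log2 fold change of -0.60 that did not pass (SE 0.29, adjusted p = 0.302). As a percent of Eif5, Snora28 was 0.202, 0.206, 0.216, 0.162, 0.199 and 0.118 in Cdk6-/- tumours and 0.699, 0.962 and 1.08 in Cdk6+/+ tumours. That ratio differed by -2.32 on the log2 scale, or by -1.57 with 0.5 CPM added to both (exact two-sided permutation test, p = 0.0119 both ways, the smallest possible), with the same limit as for Scarna9.

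No other H/ACA RNA passed the test. Snora31, inside Tpt1, had the highest mean CPM of the class over all 9 tumours, although Snora28 was higher in Cdk6+/+ tumours. Snora31 was at 0.354 to 4.64 CPM (median 2.34) in Cdk6-/- and 2.11, 1.71 and 1.5 CPM in Cdk6+/+ tumours, and the Cdk6-/- tumours lay on both sides of the Cdk6+/+ tumours. Snora33, inside Rps12, was at 0.398 to 3.26 CPM (median 1.32) in Cdk6-/- and 1.06, 1.00 and 1.11 CPM in Cdk6+/+ tumours. Snora68 was at 0.267 to 4 CPM (median 1.32) in Cdk6-/- and 0.864, 0.586 and 0.337 CPM in Cdk6+/+ tumours (log2 fold change 1.56, SE 0.83, adjusted p = 0.347). In all 3 the highest tumours were Cdk6-/- tumours 3 and 4. Snora57 was at 0 to 1.26 CPM (median 0.555) in Cdk6-/- and 2.02, 1.54 and 1.94 CPM in Cdk6+/+ tumours. Its groups did not overlap, but the log2 fold change of -1.58 (SE 0.92) had an adjusted p of 0.393. Snora41, inside Eef1b2, was at 0.177 to 1.88 CPM in Cdk6-/- tumours and 1.48, 0.756 and 1.24 CPM in Cdk6+/+ tumours, and 34.9% of its windows recur in another gene.

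Snord118 (U8), a C/D RNA that does not guide a modification but is needed for processing of the large-subunit ribosomal RNAs, fell. It had 0, 0, 3, 2, 0 and 1 counts in Cdk6-/- tumours and 76, 38 and 70 in Cdk6+/+ tumours, 6 counts against 184. The summed level was 34.4-fold higher in Cdk6+/+ tumours (exact 95% interval 15.5 to 95, which covers counting error only). In the test the log2 fold change was -5.08 (SE 0.74, adjusted p = 0.00489). Of 16 settings, 15 kept the call, and the Ddx3y covariate ended it (adjusted p = 0.111). Of its 50-base windows 17.4% recur in Gm24208, which had no count in any library. The U3 RNA Rnu3a, a C/D RNA outside the naming rule that also serves ribosomal RNA processing, fell too, with 37 counts in Cdk6-/- and 234 in Cdk6+/+ tumours (log2 fold change -2.88, SE 0.71, adjusted p = 0.0458).

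The member with the highest level, also per kilobase, was Snord104, a C/D RNA outside any other gene. It was at 1.12, 3.98, 7.29, 8.91, 0.840 and 4.62 CPM in Cdk6-/- tumours and 4.77, 5.03 and 4.90 CPM in Cdk6+/+ tumours, so the Cdk6-/- tumours spread on both sides of 3 nearly equal Cdk6+/+ values. Its log2 fold change was -0.13 (SE 0.67, adjusted p = 0.937), and the sign changed without Cdk6-/- tumour 1 or 5. Per kilobase, Snord104 stood at 63.7 CPM in Cdk6-/- tumours and 70 CPM in Cdk6+/+ tumours. On the same scale Scarna9 stood at 60.5 CPM in Cdk6-/- tumours and 1.85 CPM in Cdk6+/+ tumours, Snora28 at 4.91 CPM in Cdk6-/- tumours and 36.9 CPM in Cdk6+/+ tumours, and Snord118 at 0.249 CPM in Cdk6-/- tumours and 10.1 CPM in Cdk6+/+ tumours. In Cdk6-/- tumours Scarna9 was therefore near Snord104 per kilobase.

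Several C/D RNAs had groups that did not overlap without passing the test. Snord91a, inside Tsr1, was at 0.442 to 1.5 CPM (median 0.909) in Cdk6-/- and 2.30, 1.88 and 1.76 CPM in Cdk6+/+ tumours (log2 fold change -1.11, SE 0.46, adjusted p = 0.227). Snord49a, inside 2410006H16Rik, was at 0.177 to 1.58 CPM (median 0.698) in Cdk6-/- and 2.36, 1.78 and 2.20 CPM in Cdk6+/+ tumours (-1.24, SE 0.57, adjusted p = 0.269). Snord17, inside Snx5, was at 0.177 to 1.08 CPM in Cdk6-/- tumours and 1.28, 1.34 and 1.94 CPM in Cdk6+/+ tumours (adjusted p = 0.132). Snord88c, inside 2410002F23Rik, was the only tested C/D RNA with every Cdk6-/- tumour above, at 0.221 to 0.866 CPM against 0.144, 0.195 and 0.181 CPM in Cdk6+/+ tumours (log2 fold change 1.70, SE 0.54, adjusted p = 0.113). Snord88c and Snord17 were named after their values were seen.

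Some C/D rows had low counts that lay in 1 group alone or mostly in 1 group. The floors used for them cover counting error only. Snord82, inside the nucleolin gene Ncl, had 8, 1, 13, 8, 3 and 1 counts in Cdk6-/- tumours and none in Cdk6+/+ tumours, which with a floor of 3 counts over the group is at least 10.1-fold higher in Cdk6-/-. Snord92, inside Wdr43, had 15 counts over 5 Cdk6-/- tumours and none in Cdk6+/+ tumours, at least 4.45-fold higher. Snord53 lies in Wdr43 too and was at 0.177 to 0.825 CPM in Cdk6-/- tumours and 0.846, 0.464 and 0.778 CPM in Cdk6+/+ tumours, which overlap. Snord93, inside 2700038G22Rik, had 1, 2, 5, 1, 0 and 1 counts in Cdk6-/- and 17, 43 and 18 counts in Cdk6+/+ tumours. None of Snord82, Snord92 and Snord93 passed the filter on low counts.

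Host genes were tested in the same fit, with the most abundant gene taken where several contain an RNA. Snhg3, which contains Snora73a and Snora73b as Rcc1 does, is by this rule not among them and is given below. Of 88 host genes tested, 8 were lower and 1 was higher in Cdk6-/- tumours, beside 2.43% and 2.76% of all genes tested. The 9 calls became 2, 4 and 2 without Cdk6+/+ tumours 1, 2 and 3 in turn, 5, 4 and 5 without Cdk6-/- tumours 2, 3 and 4 in turn, 15 without Cdk6-/- tumour 5, and 0 with the Ddx3y covariate. The 8 lower hosts all encode ribosomal proteins, among them Rpl10, Rpl17, Rpl23a, Rpl27a, Rpl39 and Rpl5. Rpl10, for example, was at 129 CPM in Cdk6-/- tumours and 743 CPM in Cdk6+/+ tumours (log2 fold change -2.52, SE 0.40, adjusted p = 0.00783). Rpl23a was at 10.7 CPM in Cdk6-/- tumours and 364 CPM in Cdk6+/+ tumours (-5.08, SE 0.58, adjusted p = 0.00129), and exons of Tlcd1 lie opposite 59.7% of its exon bases. All 24 ribosomal protein hosts had negative log2 fold changes, with a median of -1.35, while the median of the other 64 tested hosts was -0.07. The higher host was Srcap, a chromatin remodeller that contains Snora30, at 13.9 CPM in Cdk6-/- tumours and 4.17 CPM in Cdk6+/+ tumours (1.74, SE 0.41, adjusted p = 0.0383). Srcap shares 61.7% of its exon bases with other genes on its strand. More than 10% of 50-base windows recur in other genes for 22 of the 24 ribosomal protein hosts (median 22.6%) and for 16 of the 59 other hosts with matched transcripts (median 2.09%). Among the 9 called hosts it was 8 (median 44.7%), and the part of such shared sequence in the host values was not tested.

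Setting each tested RNA beside its tested host gave 32 RNAs in 25 hosts. The 13 RNAs inside 9 ribosomal protein hosts had a median log2 fold change of 0.47 while their hosts had -0.99, and 10 of the 13 lay above their host. The median of all genes tested, 0.16, was above these hosts as well. Lying above such a host is therefore not particular to these RNAs, which also had to pass the filter on low counts. The 19 RNAs in 16 other hosts had a median of -0.63 and their hosts -0.27, and 6 of the 19 lay above. Across the 32 RNAs the correlation of RNA and host log2 fold change was -0.0442 (Pearson's r). The points share libraries and RNAs of 1 host share that host's value, so this is a description.

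**Figure D4:**
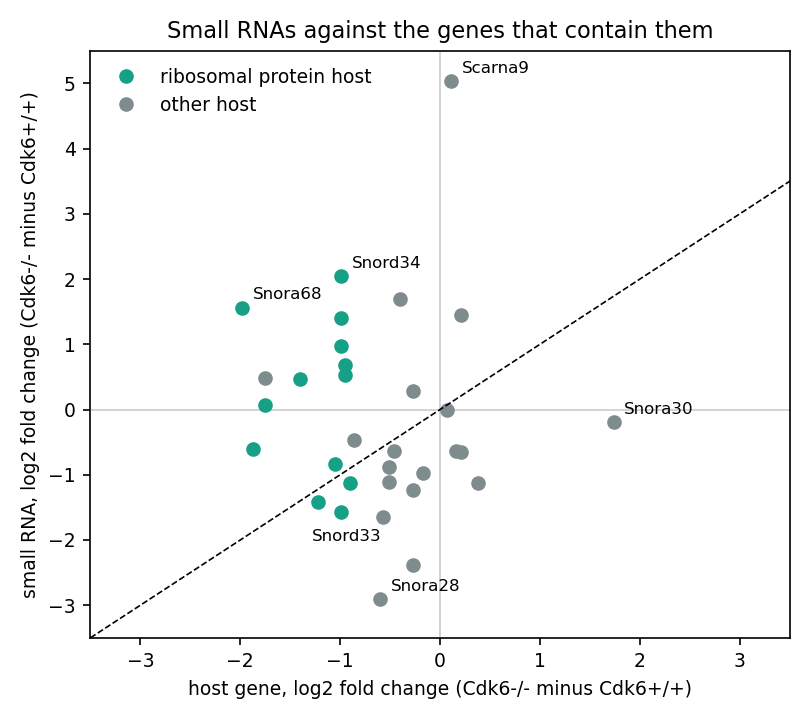
Log2 fold change (Cdk6-/- minus Cdk6+/+) of each tested small RNA on the vertical axis against that of its host gene on the horizontal axis, with green points for ribosomal protein hosts, grey points for other hosts and a dashed line where both are equal. Of the 13 RNAs in ribosomal protein hosts 10 lie above the line, and Scarna9 and Snora28 lie far from it at host values of 0.11 and -0.60. All ribosomal protein hosts have negative values, below the median of 0.16 for all genes tested.

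Levels relative to the host were compared among RNAs of the same host transcript, as a description. Rpl13a contains 4 counted C/D RNAs that guide methylation of ribosomal RNA. Snord34 was at 0.0806, 0.100, 0.318, 0.327, 0.0636 and 0.106 percent of the Rpl13a level in Cdk6-/- tumours and at 0.0327, 0.0314 and 0.0113 percent in Cdk6+/+ tumours, with every Cdk6-/- tumour above. Snord33 was at 0.0537, 0.0539, 0.133, 0.117, 0.0636 and 0.0212 percent in Cdk6-/- tumours and at 0.0962, 0.149 and 0.138 percent in Cdk6+/+ tumours, so the groups overlapped with most Cdk6-/- tumours below. Snord32a was at 0.156 to 0.537 percent in Cdk6-/- tumours and 0.0381 to 0.127 percent in Cdk6+/+ tumours, and Snord35a at 0.0849 to 0.316 percent in Cdk6-/- tumours and 0.0131 to 0.0479 percent in Cdk6+/+ tumours. Both had every Cdk6-/- tumour above every Cdk6+/+ tumour. By their own CPM the groups overlapped for Snord34, Snord32a and Snord35a. Rpl13a was at 139 to 708 CPM in Cdk6-/- tumours and 920 to 992 CPM in Cdk6+/+ tumours, without overlap. The part of the Rpl13a level in these ratios was not tested. Their own log2 fold changes were 2.04 (SE 1.02) for Snord34, 1.41 (SE 0.81) for Snord35a, 0.97 (SE 0.61) for Snord32a and -1.57 (SE 0.72) for Snord33, and none passed the test (adjusted p = 0.269 to 0.428). Rpl13a itself was at 477 CPM in Cdk6-/- tumours and 948 CPM in Cdk6+/+ tumours (-0.99, SE 0.49, adjusted p = 0.304), and 35.7% of the bases of Snord33 lie under the microRNA gene Mir5121. The difference between the 4 RNAs was not tested.

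**Figure D5:**
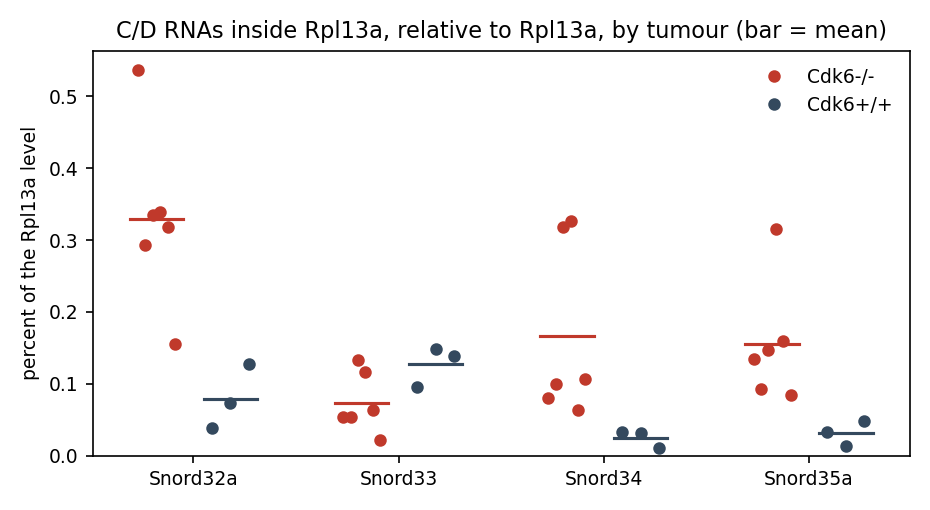
Level of 4 C/D RNAs as a percent of their host Rpl13a (vertical axis) in each tumour, with Cdk6-/- left of Cdk6+/+ and bars at group means. Snord32a, Snord34 and Snord35a have every Cdk6-/- tumour above every Cdk6+/+ tumour, and Snord33 overlaps between 0.0212 and 0.149 percent. By their own CPM the groups overlap for Snord32a, Snord34 and Snord35a, and Rpl13a itself is lower in every Cdk6-/- tumour.

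Of the other hosts that hold several counted RNAs, 2410006H16Rik, Rps12, Gnl3 and Rpl3 were picked and compared in the same way. Kansl2, Wdr43 and Nop58 also hold several and were not compared in this way. In 2410006H16Rik, Snord49a was at 2.36 to 5.47 percent of the host in Cdk6-/- and 6.87 to 9.36 percent in Cdk6+/+ tumours. Snord49b was at 0 to 0.551 percent in Cdk6-/- tumours and 1.48 to 2.63 percent in Cdk6+/+ tumours. Both lay below in every Cdk6-/- tumour, whereas Snord65 in the same transcript overlapped, at 1.83 to 8.53 percent in Cdk6-/- tumours and 2.95 to 4.41 percent in Cdk6+/+ tumours. In Rps12, Snora33 was at 0.270 to 0.886 percent in Cdk6-/- tumours and 0.185 to 0.205 percent in Cdk6+/+ tumours, and Snord100 was at 0.184 to 0.759 percent in Cdk6-/- tumours and 0.129 to 0.199 percent in Cdk6+/+ tumours. Within Gnl3, a nucleolar GTPase gene, Snord19 was at 0.652 to 1.69 percent in Cdk6-/- tumours and 0.285 to 0.702 percent in Cdk6+/+ tumours, while Snord69 was at 0.365 to 1.25 percent in Cdk6-/- tumours and 1.23 to 1.5 percent in Cdk6+/+ tumours. As a percent of the host, both RNAs of Rpl3 lay above in every Cdk6-/- tumour. The log2 fold change of Rpl3 itself was -1.40 (SE 0.38, adjusted p = 0.0612), and that of Rps12 was -0.95 (SE 0.54, adjusted p = 0.372). By their own CPM the groups overlapped for Snord83b, Snord43, Snora33 and Snord100. Snord83b had 0.47 on the log2 scale (adjusted p = 0.754), Snora33 0.69 (0.592) and Snord100 0.53 (0.715), and Snord43 was not tested. The part of the host levels in these ratios was not tested. Snord83b was at 0.126 to 0.550 percent in Cdk6-/- tumours and 0.0447 to 0.103 percent in Cdk6+/+ tumours, and Snord43 was at 0.0198 to 0.0843 percent in Cdk6-/- tumours and 0 to 0.00934 percent in Cdk6+/+ tumours.

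Of 30 tested genes for proteins of these particles, their assembly and Cajal bodies, 2 fell and none rose, beside 2.43% and 2.76% of all genes tested. Of 4 C/D proteins 1 fell: Nhp2l1 (Snu13), which binds the kink-turn formed by the C and D boxes, was at 20.5 ± 5.23 CPM (SD, n = 6) in Cdk6-/- and 76.3 ± 5.78 CPM (SD, n = 3) in Cdk6+/+ tumours (log2 fold change -1.90, SE 0.25, adjusted p = 0.00274). Fbl, the methyltransferase fibrillarin, was at 8.18 to 85.8 CPM in Cdk6-/- tumours and 95.9 to 120 CPM in Cdk6+/+ tumours without passing (-1.0, SE 0.55, adjusted p = 0.366). None of 4 H/ACA proteins passed in edgeR, DESeq2 or limma-voom (1 had an unadjusted p under 0.05), among them Nop10 (-0.92, SE 0.32, adjusted p = 0.143) and the pseudouridine synthase Dkc1 (-0.26, SE 0.32, adjusted p = 0.708). Of 12 assembly factors 1 fell, Znhit3, which acts in C/D particle assembly, at 10.2 to 15.3 CPM in Cdk6-/- tumours and 23.2 to 28.4 CPM in Cdk6+/+ tumours (-1.13, SE 0.23, adjusted p = 0.0223). None of 10 Cajal body proteins passed with any of these tools (0 had an unadjusted p under 0.05). Coil, the coilin scaffold, had -0.26 on the log2 scale (SE 0.25, adjusted p = 0.613) and Wrap53, which brings scaRNAs to Cajal bodies, had 0.19 (SE 0.42, adjusted p = 0.853). The part of shared sequence, 11.5% of the windows of Nhp2l1 and 13.9% of those of Znhit3, was not tested.

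Among 17 tested noncoding genes known as snoRNA hosts, 1 fell and none rose, beside 2.43% lower and 2.76% higher among all genes tested (1 rose in DESeq2, 0 in limma-voom, and 2 of the 17 had an unadjusted p under 0.05). Snhg3, which hosts Snora73a and Snora73b, had 1 count over Cdk6-/- tumours and 216 over Cdk6+/+ tumours, 242-fold more per library total in Cdk6+/+ (exact 95% interval 43.1 to 9620; edgeR adjusted p = 0.000613). Exons of Gm17300 lie opposite 71.5% of its exon bases, so its reads cannot be told apart from those of Gm17300 if counting ignored strand. Gas5, a host of many C/D RNAs, was at 86.0 to 360 CPM in Cdk6-/- tumours and 246 to 270 CPM in Cdk6+/+ tumours (log2 fold change -0.09, adjusted p = 0.930). Snhg12, the host of Snora16a, had -0.46 (SE 0.34, adjusted p = 0.510), and Snora16a had -0.63 (SE 0.53, adjusted p = 0.563).

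Other short structural and nuclear RNAs also separated the groups, in both directions. Of 8 such short RNAs tested, 1 rose and 4 fell, beside 2.76% higher and 2.43% lower among all genes tested (DESeq2 gave 1 and 5, limma-voom 1 and 4). Rn7sk, the RNA that holds the elongation factor P-TEFb inactive, rose and was at 114 to 297 CPM in Cdk6-/- tumours and 29.7 to 55.7 CPM in Cdk6+/+ tumours (log2 fold change 2.48, SE 0.42, adjusted p = 0.00964). Rny1 (-3.84, adjusted p = 0.000978) and Rny3 (-2.74, adjusted p = 0.0269), the Y RNAs, fell, as did Rnu3a above. Rnu12, the U12 RNA of the minor spliceosome, had no count in Cdk6-/- and 139 counts in Cdk6+/+ tumours, at least 52.0-fold higher in Cdk6+/+ with a floor of 3 counts over the Cdk6-/- group. Of 9 nuclear long noncoding RNAs tested, 2 rose and none fell, beside the same 2.76% higher and 2.43% lower among all genes tested. DESeq2 gave 3 higher, and limma-voom gave 2 higher and 1 lower. Those that rose were Malat1, at 1410 to 10400 CPM in Cdk6-/- tumours and 223 to 387 CPM in Cdk6+/+ tumours (3.93, SE 0.73, adjusted p = 0.0143), and Kcnq1ot1 (2.20, SE 0.55, adjusted p = 0.0460). Malat1 was highest in Cdk6-/- tumour 5 at 10400 CPM, where the Cajal body sum was the lowest of the group at 5.35 CPM. It was next highest in Cdk6-/- tumour 3 at 4800 CPM, where that sum was the highest at 16.4 CPM. For both, all Cdk6+/+ tumours were below all Cdk6-/- tumours. The part of these differences in the results for the scaRNAs was not tested. Windows shared with other genes made up 68.1% of Rn7sk and 53.9% of Rnu12.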

How the data were processed

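RNA of whole frozen medulloblastomas was harvested with Trizol and taken into an Illumina TruSeq RNA kit at 1 microgram of total RNA, per the labels' protocols. Per the design text, sequencing gave single-end reads of 50 bases, 37e6 or more per sample. Trimmomatic, HISAT2, FastQC, DESeq2 and the build GRCm38.p6 stand in the submitters' processing notes. How reads were assigned to rows (tool, strand, overlaps, several alignments, annotation release) is not given in the sources used. Whole-number counts per gene were deposited by the authors with the exon positions of each row, per the file headers. They also deposited log2 fold changes with standard errors and adjusted p-values of their own comparison. The remaining p-value and score columns of that deposited table were not used.

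Genotype came from the labels. Counts were fitted over all 9 tumours with edgeR 4.0.16 in R 4.3.3 (TMM factors, filterByExpr with a minimum count of 10, robust quasi-likelihood test), Cdk6-/- minus Cdk6+/+, with Benjamini-Hochberg adjustment over 18356 genes and a threshold of 0.05. The SE given for this fit was not estimated directly: it is the absolute log2 fold change divided by the square root of the F statistic of the test. CPM uses TMM-scaled totals. The fit was checked on simulated data, in which few of the changes put in were recovered at the spread of these tumours, so a gene that did not pass is not shown to be alike in both groups. DESeq2 1.42.0, limma 3.58.1, other scalings, filters, samples and covariates were tried as alternatives. Exon overlap was computed from the exon positions of the count table. All 131 rows have the same coordinates in GENCODE M21, whose transcripts gave sequences, box motifs and shared 50-base windows (reads of this length from a shared window can come from either gene). Counting intervals and floors of 3 counts cover counting error only. The closest libraries of 1 group differed by a chi-square per degree of freedom of 31.2, so none was a repeat of another.

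The members, lists and tests were chosen with earlier results of these data known. RNAs named are those past the threshold, the 5 with the highest mean CPM and the 5 with the highest CPM per kilobase of each class, and the tested Cajal body RNAs with their hosts; from each list, called genes (at most 6) and the 2 with the smallest p. Others were named after their values were seen. Values of some host genes are not reported here.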

Additional observations from a re-analysis of the deposited data

How the results depend on the processing

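Members past the threshold numbered 5 in the fit given above, 12 with DESeq2, 3 with at least 1 CPM in 3 libraries, 11 without Cdk6-/- tumours 1 and 5, 1 with Ddx3y as a covariate, and 3 to 8 when each tumour was left out in turn. Each Cdk6+/+ tumour left out gave 3, and leaving out Cdk6-/- tumour 5 gave 8. All genes past the threshold numbered 953, 2894 with DESeq2, 563 with at least 1 CPM in 3 libraries, 2643 without tumours 1 and 5, 93 with the Ddx3y covariate, and 207 to 1506 with each tumour left out. Host genes numbered 9, 17 with DESeq2, 24 without tumours 1 and 5, 0 with the covariate, and 2 to 15 with each tumour left out. Genes for particle and Cajal body proteins numbered 2, 0 with the covariate, and 1 to 2 with each tumour left out. The 79 counted members became 78 or 79 without any tumour. The log2 ratio of the Cajal body sum, 2.75, became 2.07 without the most abundant member and -0.10 without the 3 members past the threshold, a setting chosen after seeing the data, as was leaving the pseudocount out of the RNA to host ratios. The cause of these shifts was not tested.

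With the tumour number as a replicate block, 4 members passed (Scarna17 no longer passed, with an adjusted p that rounds to 0.05), as did 1 protein gene and 822 genes in all. Same-numbered tumours deviated together with correlations of -0.254 to 0.0473, so the numbers were not taken as pairs.

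Among 286 values of single members under the alternatives, 255 kept direction and call, 15 lost the call, 2 gained it and 14 changed sign. With the Ddx3y covariate the values that changed sign were -0.08 for Snora31, -0.08 for Snord100, -0.17 for Snord65 and 0.33 for Scarna13. Without tumours 1 and 5 they were 0.34 for Snord104 and 0.31 for Scarna13. With single tumours left out the values ran over -0.44 to 0.09 for Snord104 (0.06 and 0.09 without Cdk6-/- tumours 1 and 5 in turn), -0.03 to 0.5 for Snord65 (-0.03 without Cdk6-/- tumour 3), and -0.31 to 0.24 for Scarna13. Of the 131 members, 92 had too few counts for the test: 44 lie wholly under a same-strand exon and 3 only opposite an exon, and 45 are neither.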
